A study of Mus musculus with 4 samples.

Results

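The genes described here encode the Bmp and Tgf-beta ligands, their secreted antagonists, their receptors and the Smad proteins that carry the signal to the nucleus. They were chosen by name, from a list made with earlier results of these data known. Every autosomal probe whose gene name in the array design matched 1 of 43 listed genes was taken. Probes were found for 41 of the 43, and Gdf11 and Inhbb had none. The 211 member probes formed 48 of the 18492 autosomal regions on the arrays, a region being a run of probes of the same gene name spaced at most 1000 bp apart. Of these, 42 regions of 38 genes were measured, meaning that at least 2 probes were usable. Usable probes stood well above background at 1 or both ages.

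Intestinal genomic DNA of 32-month-old C57BL/6 mice, a widely used inbred strain, was set against that of 3-month-old C57BL/6 mice. The arrays were made for DNA methylation profiling, and per the labels the 32-month DNA carried the red dye Cy5 and the 3-month DNA the green dye Cy3 on both of the 2 arrays. The first array held chromosomes 1 to 8 and the second mainly chromosomes 9 to 19 and the sex chromosomes. Each age had 1 sample on each array, with no array on which the dyes were exchanged. The sources used here do not give the sex or number of the animals, or how DNA was selected by its methylation. The values are therefore signals and ratios of signals, not methylation levels, and age cannot be told apart from dye or from the individual sample. No difference below has a replicate check, no p-value is given, and each SD is the spread over the probes of a region. Intestine holds many cell types, and a change in their proportions cannot be told apart from a change within a cell type. DNA carries no cell type markers of the kind that RNA does, so the tissue label was not checked.

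Ligands of this family are secreted dimers that bind a pair of type I and type II receptor kinases. The activated type I receptor phosphorylates receptor-regulated Smads, which join Smad4 and enter the nucleus, while Smad6 and Smad7 inhibit the relay. In the intestine, Bmp signals from the mesenchyme restrain stem cell division in the epithelium, and antagonists such as Nog and Grem1 limit them near the crypt base. In mammalian DNA, methyl groups sit mostly on the cytosine of CpG dinucleotides, which are dense in the promoters of many developmental genes.

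Regions of 3 ligand genes, Bmp2, Gdf7 and Gdf10, had at least 2-fold more signal at 32 months, and all of their usable probes lay on that side. Part of a Bmp4 region did the same. The Tgfbr1 promoter had the lowest ratio of the measured member regions, with about 2-fold less signal at 32 months. The remaining receptors and the Smads had region ratios near 1.

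The probe sequences of the 3 ligand regions are shown because they were more than 2-fold brighter at 32 months with all usable probes on that side, and those of Bmp4 because its probes were split. Each is given as deposited, 5′ to 3′, with CpG dinucleotides in capitals, and numbered along the chromosome. Positions are those in the files, whose genome build is not stated there, and the files mark a probe as promoter or as inside its gene without naming exons, introns or UTRs. The Bmp2 probes lie at chr2:133243919-133244778, the first and second in the promoter and the third inside the gene.
Bmp2 probe 1: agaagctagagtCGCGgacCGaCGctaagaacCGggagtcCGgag
Bmp2 probe 2: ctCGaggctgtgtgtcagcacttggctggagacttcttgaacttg
Bmp2 probe 3: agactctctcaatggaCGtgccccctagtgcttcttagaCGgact

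The Gdf7 probes lie at chr12:8328001-8328784, all in the promoter.
Gdf7 probe 1: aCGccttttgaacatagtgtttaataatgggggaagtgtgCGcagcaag
Gdf7 probe 2: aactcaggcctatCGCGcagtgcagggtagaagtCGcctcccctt
Gdf7 probe 3: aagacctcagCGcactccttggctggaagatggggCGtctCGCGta
Gdf7 probe 4: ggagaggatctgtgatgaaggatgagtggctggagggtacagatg
Gdf7 probe 5: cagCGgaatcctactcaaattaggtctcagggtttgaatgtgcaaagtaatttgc

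The Gdf10 probes lie at chr14:32751944-32752872, the first 3 in the promoter and the fourth inside the gene.
Gdf10 probe 1: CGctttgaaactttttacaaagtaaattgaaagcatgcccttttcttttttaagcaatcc
Gdf10 probe 2: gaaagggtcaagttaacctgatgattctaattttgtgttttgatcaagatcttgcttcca
Gdf10 probe 3: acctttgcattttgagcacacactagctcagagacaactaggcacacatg
Gdf10 probe 4: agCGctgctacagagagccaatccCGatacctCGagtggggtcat

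The Bmp4 probes of the region that is split along its length lie at chr14:45312110-45313440, probes 1 and 2 inside the gene and probes 3 to 6 in the promoter.
Bmp4 probe 1: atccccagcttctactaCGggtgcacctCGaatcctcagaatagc
Bmp4 probe 2: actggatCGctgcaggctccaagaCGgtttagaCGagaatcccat
Bmp4 probe 3: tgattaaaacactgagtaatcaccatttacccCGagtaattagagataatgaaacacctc
Bmp4 probe 4: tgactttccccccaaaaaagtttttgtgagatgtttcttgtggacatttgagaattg
Bmp4 probe 5: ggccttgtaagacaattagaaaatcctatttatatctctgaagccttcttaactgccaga
Bmp4 probe 6: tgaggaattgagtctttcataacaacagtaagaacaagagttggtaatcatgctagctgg

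Among these 4 regions CpG dinucleotides were most frequent in the Bmp2 probes, at 6.67 per 100 bases, against a median of 1.92 over all measured autosomal regions. The Gdf7 probes had 4.17, and those of Gdf10 and Bmp4, at 1.86 and 1.83, lay just below that median. Among the Bmp4 probes, CpGs occurred in probes 1 to 3 and in none of probes 4 to 6. Probes 2 and 3 of Gdf10 also held no CpG.

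Bmp2, a ligand that drives bone and cartilage formation, had the highest ratio of the 42 measured member regions. Its 3 probes read 12400, 24200 and 48100 units of processed signal at 32 months, against 882, 2640 and 5180 at 3 months. Each probe was several times brighter at 32 months. The log2 ratio of 32 over 3 months, less the median of its array, was 3.84, 3.23 and 3.24 at the 3 probes. The region's value, the median over its probes, was 3.24 ± 0.35 (SD over 3 probes), a 9.47-fold difference, at percentile 99.7 of measured autosomal regions. Its median signal stood at percentile 98.2 of the regions on its array at 32 months and at percentile 86.1 at 3 months.

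Gdf7, a ligand of the Bmp family known for patterning dorsal spinal cord neurons, followed with a split promoter. Probes 1 to 3 read 34100, 86800 and 20500 at 32 months, against 1840, 13900 and 1250 at 3 months. Probes 4 and 5 read 64700 and 64100 at 32 months, against 45600 and 46500 at 3 months. The log2 ratios were 4.26, 2.70 and 4.09 at probes 1 to 3, within 305 bp of the first, and 0.56 and 0.52 at probes 4 and 5, from 594 bp onward. The median was 2.70 ± 1.83 (SD over 5 probes), a 6.48-fold difference. Signal from probes 4 and 5 was high at both ages, and the 3-month signal of probes 1 and 3 was the lowest of the region.

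The first and second Gdf7 probes matched the RefSeq promoter of Gdf7, at positions -87 to -39 and -223 to -179 from the annotated start. The 250 bases before that start are printed from RefSeq, assembly GRCm38.p6, minus strand of chr12:8301955-8302204, with CpGs in capitals, because probes 1 and 2 fall in it. They hold 20 CpGs, against a median of 6 over 31396 autosomal promoter windows of that length in the table.
Gdf7 promoter: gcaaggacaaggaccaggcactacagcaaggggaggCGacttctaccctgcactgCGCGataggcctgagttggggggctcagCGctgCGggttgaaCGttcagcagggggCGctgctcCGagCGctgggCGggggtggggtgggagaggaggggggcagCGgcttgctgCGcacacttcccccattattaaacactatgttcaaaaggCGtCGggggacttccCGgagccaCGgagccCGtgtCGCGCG

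Since the gene runs on the minus strand and probe positions rise from probe 1 to probe 5, probes 4 and 5 lie farther upstream of the start than the matched pair. The ratios below 2-fold were thus farther from the annotated start than the ratios of probes 1 and 2. Probe 3 had no match in the promoter window.

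Gdf10, a relative of Bmp3, read 11000, 144000, 115000 and 74700 at its 4 probes at 32 months, against 1830, 34800, 24000 and 9170 at 3 months. All 4 probes were brighter at 32 months, by 4.29-fold to 8.45-fold. The log2 ratios were 2.64, 2.10, 2.31 and 3.08, the highest at the probe inside the gene. The median was 2.48 ± 0.43 (SD over 4 probes), a 5.57-fold difference, and the region's signal stood at percentile 99.3 of its array at 32 months and at percentile 98.3 at 3 months. The probes without a CpG had the lowest of these ratios.

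**Figure D1:**
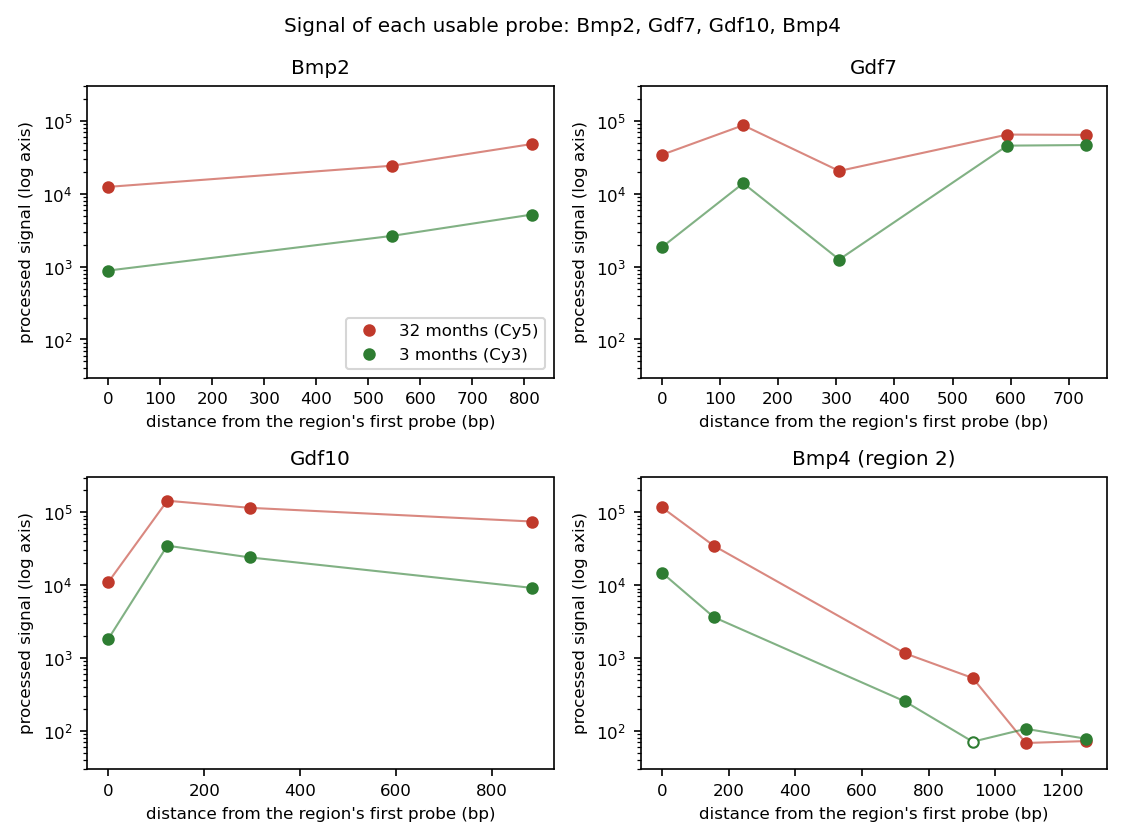
Processed signal (log axis) of each usable probe against distance from the region's first probe in bp, for Bmp2, Gdf7, Gdf10 and Bmp4 region 2; red points are 32 months and green points 3 months, and open points are not well above background. The red points lie above the green ones at every probe of Bmp2 and Gdf10, the gap narrows at Gdf7 probes 4 and 5, and the ages meet at Bmp4 probes 5 and 6.

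For a call of higher at 32 months, a region needed a median log2 ratio of 1 or more and no usable probe at or below 0, and a call of lower needed the opposite. By this rule 3 of the 42 measured member regions were called higher, or 7.14%, against 1.83% of the 14835 measured autosomal regions. The genes and the rule were chosen with earlier results of these data known, so these shares are a description and not a test. None of the 42 was called lower, against 0.586% of all autosomal regions, and none had a median of -1 or below with or without agreement among its probes, against 0.883%. All 3 calls were among the 21 measured ligand regions, 14.3% of them, and none fell on the 6 antagonist, 9 receptor and 5 Smad regions or on Bmp1. With 1.83% called in the background and at most 9 regions in each of these classes, a count of 0 does not set them apart from other genes. Calls were more frequent among bright regions. When autosomal regions were split into 4 equal bins by mean signal over the ages, 5.61% were called higher in the brightest bin, against 0.512%, 0.404% and 0.782% in the others, from dim to bright. The brightest bin held 18 member regions, including the 3 that were called, and the part of brightness in their ratios was not tested.

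**Figure D2:**
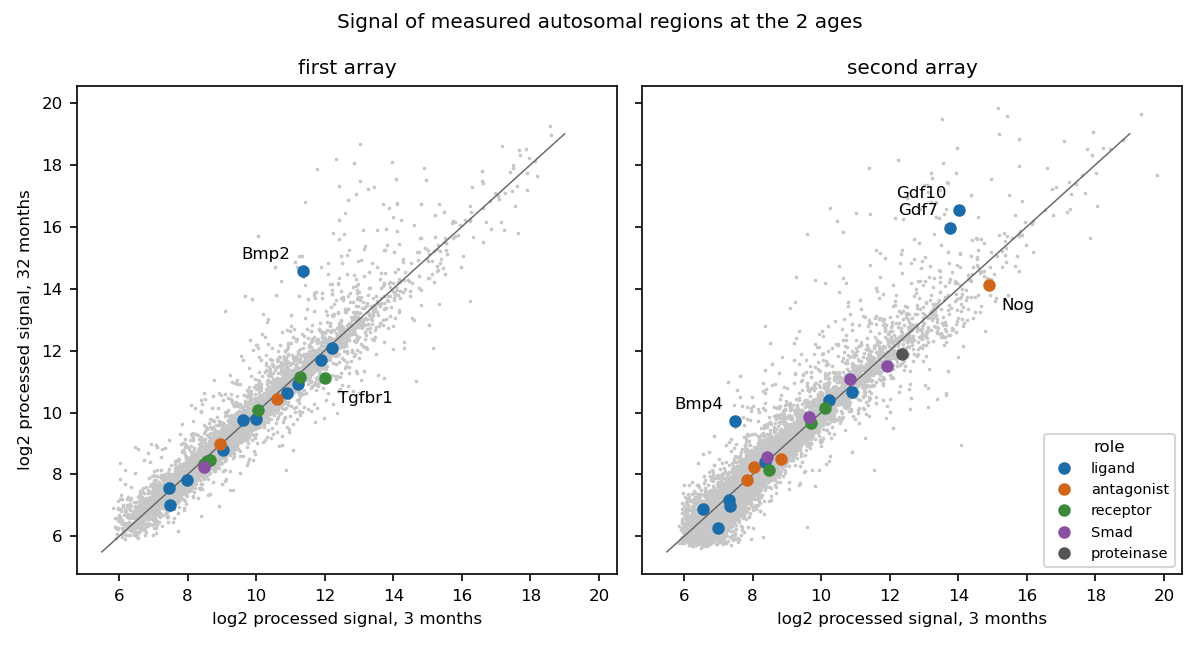
Log2 processed signal of each measured autosomal region at 32 months (vertical) against 3 months (horizontal), grey for all regions and coloured by role for the genes described here, with the line of equal signal; each panel is 1 array. Bmp2, Gdf7, Gdf10 and Bmp4 stand above the line, and Tgfbr1, Nog, Bmp1 and the second measured Tgfb3 region are among those below it.

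Bmp4, the main mesenchymal Bmp of the villus, had 2 measured regions. In the region printed above, probes 1 to 4 read 117000, 34700, 1160 and 533 at 32 months, against 14900, 3640, 254 and 71.2 at 3 months. Probes 5 and 6 read 68.4 and 72.7 at 32 months, against 107 and 78.3 at 3 months. The first 4 probes were brighter at 32 months and the last 2 were not. The log2 ratios were 3.03, 3.31, 2.24 and 2.96 at probes 1 to 4, and -0.59 and -0.055 at probes 5 and 6. Probe 4 was not well above background at 3 months, so its difference, after centring on the array median, is a bound of at least 7.76-fold. The median of 2.60 ± 1.70 (SD over 6 probes) met the threshold, but the region was not called because its probes disagreed in sign. Region medians of at least 1, with or without agreement among probes, made up 2.8% of the autosomal regions. When probes were joined only up to 500 bp apart, the first probes of this region formed a region that was called, at 3.17. The other Bmp4 region, at chr14:45308827-45310169 inside the gene, had a median of -0.098 ± 0.36 over 6 probes, with medians of 339.5 at 32 months and 327 at 3 months. Its probe ratios ran on both sides of 0. After normexp background correction the split region's median was 0.89, below the threshold.

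Bmp6, a ligand known for inducing hepcidin in the liver, was mixed along chr13:38352252-38353283. Its 4 usable probes read 64.3, 340, 2400 and 10700 at 32 months, against 208, 113, 2170 and 3290 at 3 months. The log2 ratios were -1.64, 1.64, 0.20 and 1.75, the last inside the gene, with a median of 0.92 ± 1.59. Probes brighter at 32 months thus stood beside 1 that was dimmer. The value was 0.28 with dim probes kept and 0.49 after normexp correction or with the mean over probes. Centred on all positioned probes it was 1.01, and the region was still not called.

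The other Bmp and Gdf ligands had region medians within 0.25 of 0 on the log2 scale. Gdf3, an early embryonic ligand, was at 0.082 ± 0.16, and Gdf1, which acts with Nodal in left-right patterning, was at -0.048 ± 0.28. Bmp5 was at -0.11 ± 0.80, and its 3 usable probes ranged from -0.70 to 0.89. Bmp3, which opposes bone-forming Bmps, was at -0.14 ± 0.28. The values of Bmp8a, -0.16 ± 0.047, and Bmp7, which the kidney needs to develop, -0.16 ± 0.11, had small spreads over their probes. The brightest of these was Bmp7, with a median signal of 3285 at 32 months and 3775 at 3 months, and Bmp8a had 1600 at 32 months and 1900 at 3 months. Bmp5 was the dimmest, with 119 at 32 months and 94.6 at 3 months. Gdf5, known from joint formation, was at -0.18 ± 0.30, and Bmp10, a heart ligand, was at -0.21 ± 0.29. Gdf6 had a single usable probe, a second Gdf1 region had 1 probe, and neither was measured.

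Among the other ligands, Nodal, which induces mesoderm and endoderm in the embryo, had 127 units of median signal at 32 months and 161 at 3 months, and a median ratio of 0.19 ± 0.52 over 5 probes. The order of its signals and the sign of its ratio differ because each is a median over probes. The activin subunit gene Inhba was at -0.093 ± 0.10. The inhibin subunit gene Inha, whose measured probes lie in a promoter shared with AW822216, was at -0.18 ± 0.38, and a further probe inside the gene formed an unmeasured region. Tgfb1, a suppressor of immune responses, was at -0.27 ± 0.18, with 1940 units at 32 months and 2365 at 3 months. Tgfb2, needed for heart and skeletal development, was at -0.22 ± 0.47, with 438 units at 32 months and 521 at 3 months. Tgfb3, known from closure of the palate, had 2 measured regions in the promoter it shares with 1700019E19Rik and a further region with too few usable probes. The first measured region was at 0.18 ± 0.23. The second read 89.2 and 65.5 at 32 months, against 113 and 143 at 3 months, with log2 ratios of -0.29 and -1.07. Its median of -0.68 ± 0.56 was the lowest of the ligands and rests on 2 dim probes.

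Over the 21 ligand regions the median log2 ratio was -0.098, against 0.0012 over all 14835 autosomal regions, with 8 above 0 and 13 below. Their mean was 0.47, since the 4 highest regions lay between 2.48 and 3.24. No other ligand region lay above 1, and the next was Bmp6. The ligand median was 0.079 after normexp background correction, so its sign depends on the processing.

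**Figure D3:**
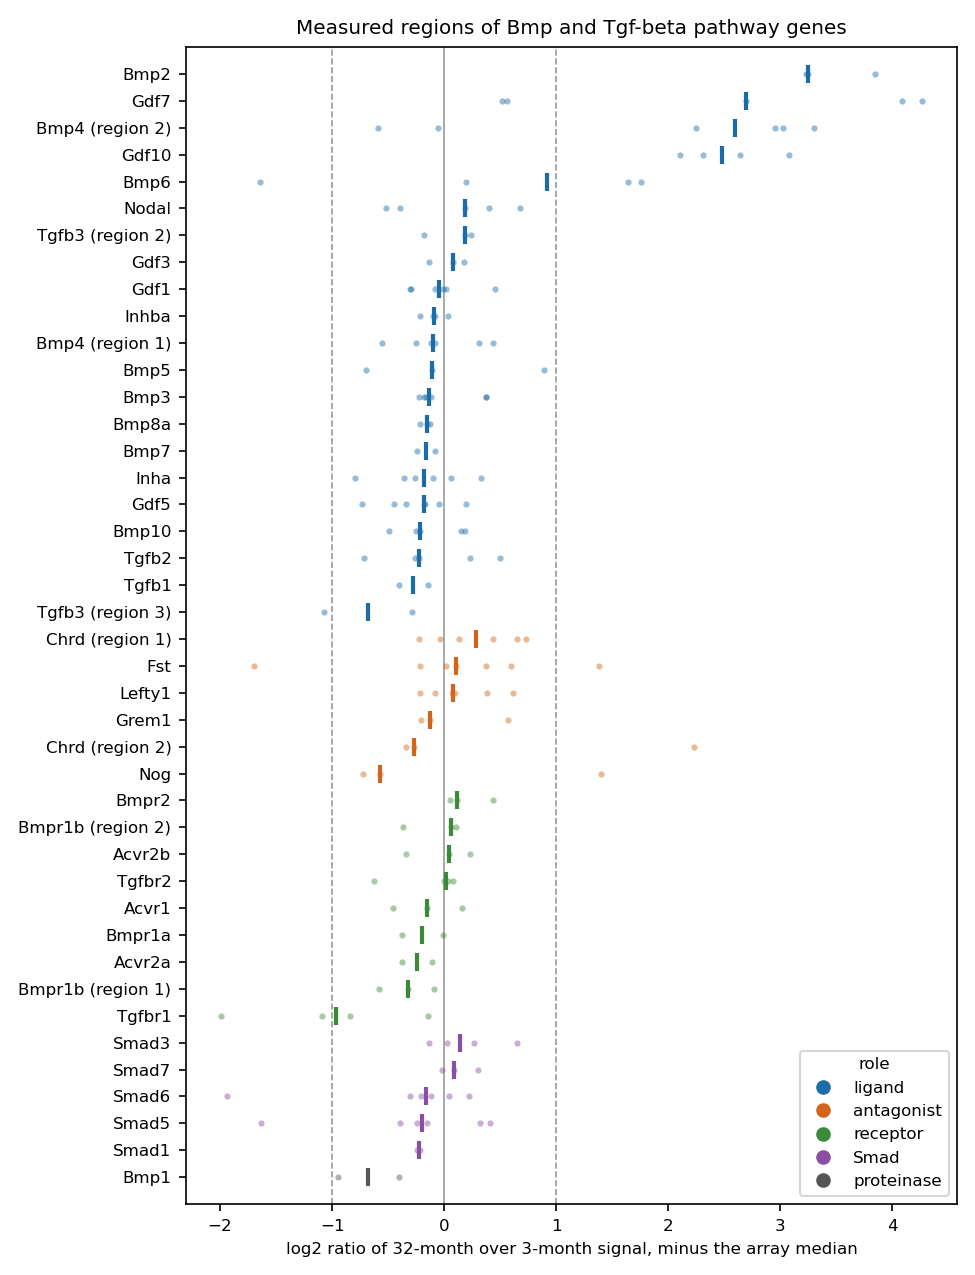
Log2 ratio of 32-month over 3-month signal, minus the array median, for each of the 42 measured regions (horizontal axis), grouped and coloured by role; points are usable probes, vertical ticks are region medians, and dashed lines mark 1 and -1. Bmp2, Gdf7, Bmp4 region 2 and Gdf10 stand right of the upper dashed line, and Tgfbr1 lies just right of the lower one.

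The antagonists bind ligands outside the cell and keep them from their receptors. Their 6 measured regions had a median of -0.022 and ranged from -0.57 to 0.28. Nog, which binds Bmp2 and Bmp4, gave the lowest. Its probes read 4670, 31600 and 17700 at 32 months, against 1830, 48600 and 30300 at 3 months. The probe inside the gene was brighter at 32 months, with a log2 ratio of 1.40, and the 2 promoter probes were dimmer, at -0.57 and -0.72. The median was -0.57 ± 1.19, and the Nog region was among the brightest of its array, at percentile 97.7 at 32 months and percentile 99.1 at 3 months. The Nog value was 0.36 after normexp correction and 0.037 with the mean over probes, so its direction depends on the processing.

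Chrd, which encodes the Bmp-binding protein chordin, had 2 measured regions. Its promoter region stood at 0.28 ± 0.39 over 6 probes, the highest of the antagonists. The other region read 365, 165 and 20700 at 32 months, against 456, 217 and 4570 at 3 months. Only the probe inside the gene was brighter at 32 months, at 2.23, and the region's median was -0.27 ± 1.47. The promoter region was at -0.044 after normexp correction and the other at 0.54 with the mean over probes, so neither direction held under all settings. Fst, which encodes the activin-binding protein follistatin, had a median of 0.11 ± 0.94 over 7 probes. A Fst promoter probe read 157 at 32 months and 62.4 at 3 months, where it was not well above background, a difference of at least 2.61-fold after centring. Another read 64 at 32 months, where it was not well above background, and 215 at 3 months, at least 3.24-fold lower at 32 months. Grem1, which encodes a Bmp antagonist of the crypt base, was at -0.13 ± 0.43. Lefty1, an antagonist of Nodal, was at 0.083 ± 0.31.

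The sequences of the Tgfbr1 promoter probes, at chr4:47373425-47374180, are shown because this region had the lowest ratio.
Tgfbr1 probe 1: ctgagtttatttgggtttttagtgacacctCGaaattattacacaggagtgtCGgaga
Tgfbr1 probe 2: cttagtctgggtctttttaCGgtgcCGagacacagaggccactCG
Tgfbr1 probe 3: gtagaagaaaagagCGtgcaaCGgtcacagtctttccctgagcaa
Tgfbr1 probe 4: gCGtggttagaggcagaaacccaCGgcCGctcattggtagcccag

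Tgfbr1 encodes the type I receptor for Tgf-beta. Its probes read 74.2, 2170, 2270 and 3860 at 32 months, against 301, 3960, 4920 and 4350 at 3 months. All 4 were dimmer at 32 months, probe 4 by the least. The log2 ratios were -1.99, -0.84, -1.09 and -0.14. Probe 1 was not well above background at 32 months, so it was at least 3.98-fold lower there. The median of -0.96 ± 0.76 (SD over 4 probes), 0.513 of the 3-month signal, lay at percentile 1.02 of autosomal regions and missed the threshold of -1. With the mean over probes in place of the median the region was called lower, at -1.02, a mean that includes probe 1. Over probes well above background at both ages the median was -0.83, without a call. After normexp background correction its median was -0.39.

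Probe 4 of Tgfbr1 matched its RefSeq promoter at positions -186 to -142 from the annotated start. The 250 bases before that start, plus strand of chr4:47352972-47353221 in GRCm38.p6, are printed because the probe nearest the start had the smallest difference. They hold 29 CpGs.
Tgfbr1 promoter: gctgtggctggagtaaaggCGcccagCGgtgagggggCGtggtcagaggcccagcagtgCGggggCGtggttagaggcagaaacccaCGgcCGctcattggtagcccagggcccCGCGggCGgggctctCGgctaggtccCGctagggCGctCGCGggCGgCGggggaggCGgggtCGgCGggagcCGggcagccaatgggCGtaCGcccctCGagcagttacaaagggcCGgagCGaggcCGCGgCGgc

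In this promoter the 3 probes farther upstream had the lower ratios. In Gdf7 the matched probe nearer the start, probe 1, had the most extreme ratio, in the other direction.

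**Figure D4:**
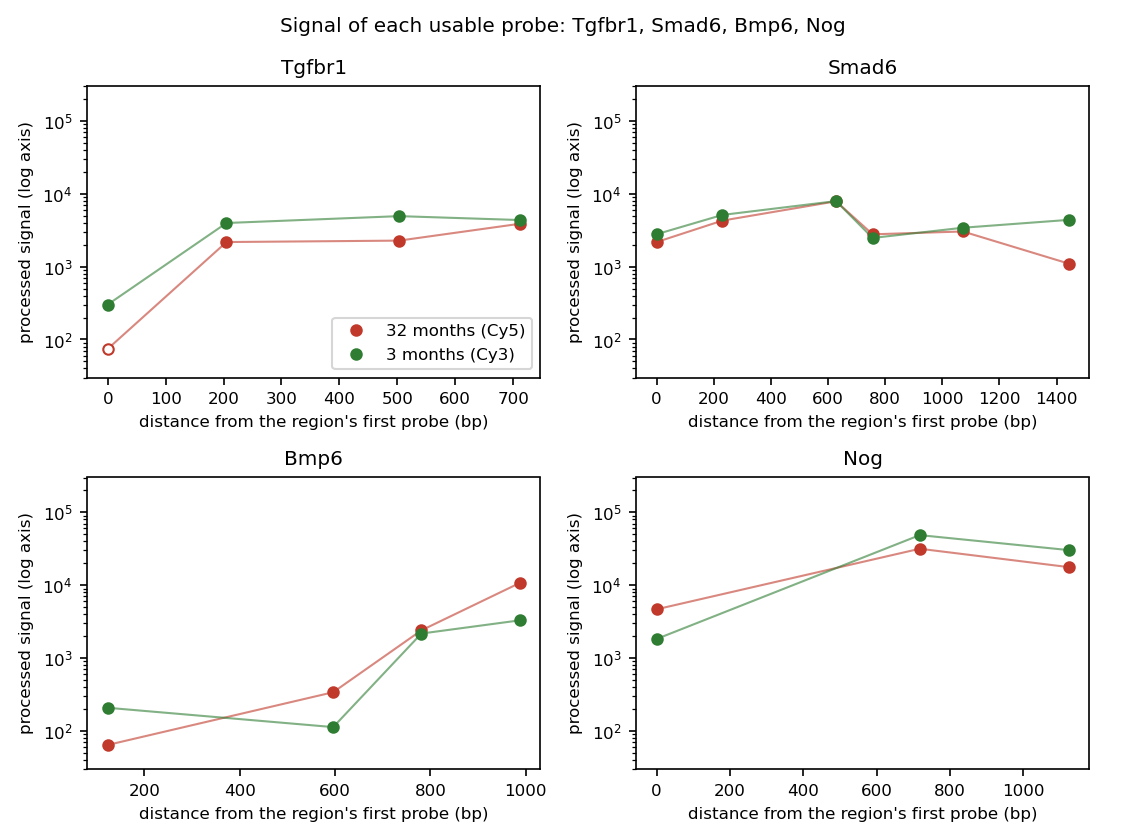
Processed signal (log axis) of each usable probe against distance from the region's first probe in bp, for Tgfbr1, Smad6, Bmp6 and Nog; red points are 32 months and green points 3 months, and open points are not well above background. Red lies below green at all 4 Tgfbr1 probes. In Smad6 red lies below green by the most at the last probe, and the order of the ages changes along Smad6, Bmp6 and Nog.

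The other receptors stayed within 0.35 of 0. Among type I receptors, Acvr1 was at -0.16 ± 0.31 and Bmpr1a, whose loss in the mouse gut gives polyps, at -0.19 ± 0.26. Bmpr1b had 2 measured regions, at -0.32 ± 0.24 and at 0.060 ± 0.26. The array design marks the first as inside the gene and the second as partly promoter. A usable probe of the first nonetheless matched RefSeq promoters, at -35 to 16 and -203 to -152 from 2 annotated starts. A probe of the second matched another, at -164 to -112, so both regions lie at annotated starts. Among type II receptors, Bmpr2 was highest, at 0.11 ± 0.21, with medians of 1080 at 32 months and 1060 at 3 months. Acvr2b was at 0.040 ± 0.29, Tgfbr2, the partner of Tgfbr1, at 0.013 ± 0.33, and Acvr2a, a receptor for activins, at -0.24 ± 0.19. Median signals of Bmpr1a were 286 at 32 months and 353.5 at 3 months. Those of Tgfbr2 were 811.5 at 32 months and 828 at 3 months, and those of Acvr2a 2267.5 at 32 months and 2509.5 at 3 months. The median over the 9 receptor regions was -0.16.

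Smads had the narrowest range of the 4 main roles, from -0.23 to 0.15 over 5 regions, with a median of -0.16. After normexp correction the 5 ran from -0.096 to 0.70, a wider range than that of the antagonists, -0.044 to 0.36. Of the receptor-regulated Smads, Smad3, which serves Tgf-beta and activin receptors, was at 0.15 ± 0.34. Smad1, which serves Bmp receptors, was at -0.23 ± 0.019 over 2 probes, with medians of 303 at 32 months and 360.5 at 3 months. Smad5, which also serves Bmp receptors, was at -0.20 ± 0.74, and 1 of its probes read 63.9 at 32 months, where it was not well above background, and 206 at 3 months, at least 3.11-fold lower at 32 months. The inhibitory Smad6 was at -0.16 ± 0.78 over 6 probes. Its last probe read 1100 at 32 months and 4370 at 3 months, a log2 ratio of -1.94, and its other 5 lay between -0.30 and 0.22. Smad7, also inhibitory, was at 0.088 ± 0.17, with 2180 units at 32 months and 1830 at 3 months. Smad2 had no usable probe and the shared partner Smad4 had 1, so neither was measured. The Smad median was 0.28 after normexp correction and 0.064 over probes well above background at both ages, so its sign depends on the processing.

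Bmp1, despite its name, encodes a proteinase that cleaves chordin and procollagen. Its probes read 7500 and 81.3 at 32 months, against 10300 and 163 at 3 months, and its median was -0.68 ± 0.39. After normexp correction it was 0.022, so the direction for Bmp1 also depends on the processing.

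Counted by single probes, log2 ratios of at least 1 occurred in 19 of 172 usable member probes, 11.0%, against 5.99% of 60360 autosomal probes. On the first array these were 3 of 80, 3.75%, against 4.98% of its autosomal probes. On the second they were 16 of 92, 17.4%, against 7.04%. Over both arrays, ratios of at most -1 occurred in 7 member probes, or 4.07%, against 3.5%. Of the 19, 16 were ligand probes, 17.2% of 93, and all lay in Bmp4, Gdf10, Bmp2, Gdf7 and Bmp6. The other 3 were antagonist probes, 10.7% of 28, in Chrd, Fst and Nog. No receptor probe among 27 and no Smad probe among 22 reached 1. Probes of a region are close together and share DNA, so these are not independent counts.

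**Figure D5:**
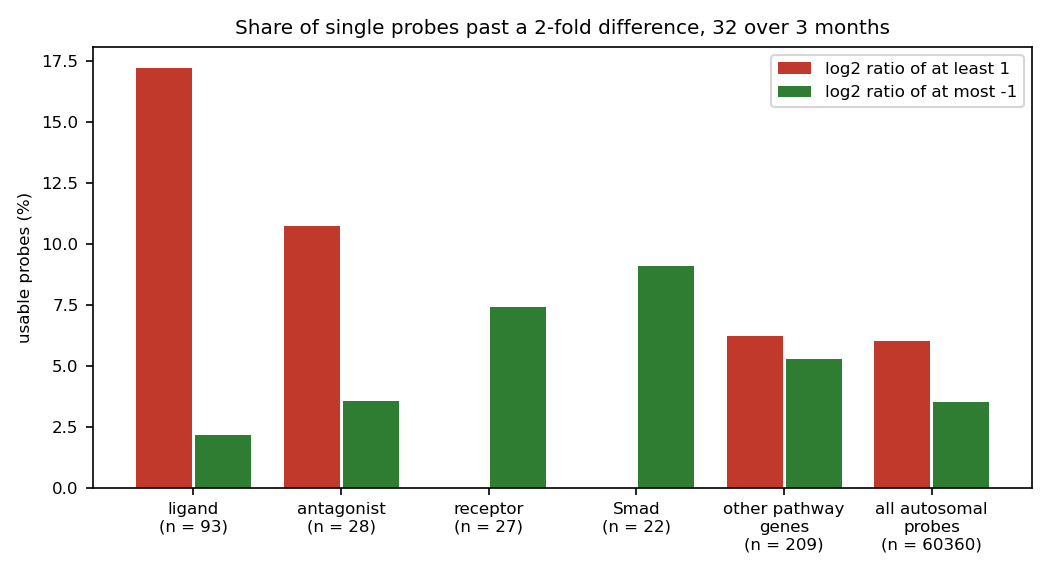
Share of usable probes (vertical axis, %) with a log2 ratio of 32 over 3 months of at least 1 (red) and at most -1 (green), by role, for other pathway genes and for all autosomal probes; n is the number of usable probes. The ligand bar for ratios of at least 1 is highest at 17.2%. Receptors and Smads have no such probe, among too few probes to set them apart from all autosomal probes.

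The probes past 2-fold higher were also described by position and sequence. Of member probes inside genes, 7 of 44 reached a log2 ratio of 1, or 15.9%, against 6.52% of all autosomal probes inside genes. In promoters it was 12 of 117, or 10.3%, against 5.77%. In promoters shared with another gene it was 0 of 11, against 5.42%. By CpG content, 5 of 70 member probes without a CpG reached 1, or 7.14%, 8 of 79 with 1 or 2, or 10.1%, and 6 of 23 with 3 or more, or 26.1%. Over all autosomal probes these classes had 4.49%, 6.49% and 9.00%, so the share was higher with more CpGs in both. The 6 member probes all lay in Bmp2, Gdf7, Gdf10, Bmp4 and Bmp6, the genes already named for their high ratios. As above, probes of a region are not independent counts, so the member shares are no separate evidence of a trend with CpG content. RefSeq promoters were found for 29 member genes, with 35 annotated starts. Their median CpG count in the 250 bases before the start was 21, ranging from 1 to 49. The motif CCCGGG, which reads the same on both strands, was present in 7 of the 35 windows, 20%, against 11.4% of all 31396. The 7 were the windows of Acvr1, Bmp4, Bmp6, Chrd and Smad6, and of Gdf11 and Inhbb, which had no probe. Those of Gdf7 and Gdf10 lacked the motif, and Bmp2 had no window among the 35. The median share of G and C bases was 64% in the member windows, against 52.4% over all. Its part in the motif share was not tested.

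Signal behind these values was moderate. At 32 months 72.5% of the first array's 41545 probes and 70.2% of the second array's 41577 were well above background, against 71.2% and 71.4% at 3 months, and no probe was saturated. In 35 of the 42 measured member regions every usable probe was well above background at 32 months, and in 35 at 3 months. Of the measured member regions, 78.6% lay within 0.5 of 0, against 86.8% of all autosomal regions. The 20 measured on the first array had a median of -0.16 and the 22 on the second 0.027, and the arrays hold different genes.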

How the data were processed

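Intensity values of 2 custom 2-colour Agilent arrays were analysed. The deposited intensity values were read from the scans by Agilent's Feature Extraction software, version 9.1.3.1, as the submitters' processing notes state. Per the file headers, the processed signals had local background removed, spatial trends corrected and the dyes brought to 1 scale linearly. The files deposited for the 2 dyes of an array were identical, and each channel was read once. The authors' value table equalled the processed signals in 100% of spots, within a relative tolerance of 0.006.

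The log2 ratio of processed 32-month over 3-month signal was computed from the deposited intensities per probe. It was centred on its array's median over usable probes, -0.029 and -0.052. Control spots, 272 probes without a position and outlier flags were left out. A bound on a fold uses the lowest signal well above background on that array, or the probe's own where higher, and is centred like the ratios. Median mean signals were 203 at 32 months and 113 at 3 months on the first array, against 107 and 80 for its 507 negative controls. On the second they were 135 and 71.8, against 107 and 61.7. The number of arrays limits the precision.

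Every called region, every region past 1 or -1 without a call, the extremes of each role, members with several regions and unmeasured members are named, and the other members are named within their role. Members, lists and rules were chosen with earlier results of these data known. RefSeq sequences (GRCm38.p6) were matched by symbol. Positions in the files differ from that assembly and were not converted. Alternatives covered centring, loess (span 0.3), normexp (offset 50), probe filters, region joining, thresholds and the value table, with limma 3.58.1 in R 4.3.3 and pandas 2.3.3 in Python 3.11.15. Normexp started from mean signals and local background, not from processed signals. It therefore also left out the spatial and dye corrections, and changes under normexp cannot be credited to background correction alone.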

Additional observations from a re-analysis of the deposited data

How the results depend on the processing

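Bmp2, Gdf7 and Gdf10 stayed called higher under each of the 11 processing alternatives, with medians of 3.15 to 3.44, 2.42 to 3.49 and 2.31 to 3.03. Among these alternatives, the authors' value table equalled the processed signals, so its outcome was fixed in advance. It also enters the counts of moved values below. The count of 3 became 4, with Bmp4, at a joining distance of 500 bp and without the rule that probes agree. The count of 0 lower became 1 with the mean over probes (Tgfbr1, -1.02) and 3 at a threshold of 1.5-fold (Bmp1 and Tgfb3, both -0.68, and Tgfbr1, -0.96). The Smad median, -0.16, was 0.28 after normexp and 0.064 over probes well above background at both ages; the causes were not tested. Ligand and antagonist medians also changed sign under some settings, within the spread over regions, and the receptor median kept its sign, from -0.18 to -0.025. Of the 70 summary values under alternatives 66 moved by less than their limit and 4 by more, and of the region values 444 and 18. Over all autosomal regions 75.7% of calls were higher, 69.3% without centring and 95.2% after normexp, which left 15 lower calls in place of 87. Dim probes near background limit the ratios of Tgfbr1 probe 1, Bmp4 probe 4 and parts of Fst and Smad5. No paired analysis was possible because each age had 1 sample on each array.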

Other observations

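A further list of 55 genes of the same pathway was described alongside, also chosen with results of these data known. It held other ligands, such as Amh, Bmp8b, Gdf2, Gdf9 and Gdf15, and co-receptors, latent binding proteins, other antagonists and Smad target genes. Of the 55, 46 genes had 51 measured autosomal regions. None was called higher, against 1.83% of all autosomal regions, and none lower, against 0.586%, so this count is close to the background. Their median log2 ratio of 32 over 3 months was 0.069, with a range from -0.77 to 1.21, 28 above 0 and 23 below. Of their 209 usable probes, 13 reached a log2 ratio of 1, or 6.22%, near the 5.99% over all autosomal probes, and 11 reached -1, or 5.26%, against 3.5%.

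On the X chromosome, which holds none of the genes described above, 508 measured regions had a median log2 ratio of -0.16, with 2 called higher and 24 lower. The 14835 autosomal regions had a median of 0.0012, with 271 called higher and 87 lower. X regions thus leaned lower at 32 months. The sex of the animals is not given, and its part in these values was not tested.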
